A study of Mus musculus with 18 samples.

Results

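The 7 genes described here encode chemokine ligands that myeloid cells make: *Ccl3*, *Ccl4*, *Ccl6*, *Ccl9*, *Cxcl2*, *Cxcl10* and *Cxcl16*. They were found by symbol among the 34896 genes of the deposited expression table, and each matched 1 row. Transcript levels were measured by RNA-seq in 3 libraries each of GMPs, preNeus and matNeus, and chromatin was measured in sorted cells with 1 library per mark, so that no difference between peak lists has a replicate check. GMPs (granulocyte-monocyte progenitors) are the bone marrow cells from which granulocytes and monocytes arise, preNeus are dividing neutrophil precursors, and matNeus are mature neutrophils. All cells came from bone marrow of C57BL/6 mice that were 6 to 12 weeks old. RNA-seq, H3K4me2 ChIP-seq and ATAC-seq used WT cells. CHD4 ChIP-seq was done in WT GMPs and in *Gfi1*-/- GMPs, which lack the transcriptional repressor GFI1. None of the RNA-seq libraries described here was of the *Gfi1*-/- genotype. The labels do not say whether the 3 libraries of a cell type came from separate mice, so that the p-values measure only the spread between these libraries.

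Chemokines are small secreted proteins that bind G protein-coupled receptors and direct the movement of leukocytes. CC ligands such as CCL3, CCL4, CCL6 and CCL9 act mainly on monocytes, macrophages, T cells and other leukocytes, whereas CXCL2 carries the ELR motif and draws neutrophils through CXCR2. CXCL10 is induced by interferon and acts on CXCR3, and CXCL16 is made as a membrane-bound protein that binds CXCR6. Many chemokine genes are controlled by NF-kB and interferon signalling and give short-lived mRNAs. CHD4 is the ATPase of the NuRD chromatin remodelling complex, with which GFI1 associates, and H3K4me2 is a histone mark of active and poised promoters and enhancers.

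The cell type in the title differed from the cell type in another label field for 13 of 18 samples, all 9 RNA-seq libraries among them, and the titles were followed. Marker genes were read under that choice. The 6 GMP markers summed to 45267 to 47153 TPM (a transcript level corrected for transcript length and library size) in GMPs, 8320 to 9360 TPM in preNeus and 9.32 to 32.7 TPM in matNeus. The 5 preNeu markers summed to 102192 to 130105 TPM in preNeus against at most 6668 TPM in any other library, and the 7 matNeu markers to 31865 to 35630 TPM in matNeus against at most 1708 TPM elsewhere. The log2(TPM + 1) profiles correlated at 0.96 to 0.971 within a cell type and at 0.483 to 0.809 between cell types, and 10754 to 12256 genes reached 1 TPM in a library. The 10 monocyte and macrophage markers summed to 1382 to 1680 TPM in GMPs, 249 to 379 TPM in preNeus and 355 to 492 TPM in matNeus. The single markers did not all follow this sum. *F13a1*, *Ms4a6c*, *Ccr2* and *Cx3cr1* were highest in GMPs, at means of 906, 200, 127 and 25.8 TPM. *Vcam1*, *C1qb*, *C1qa* and *Mrc1* were highest in preNeus, at means of 186, 37.5, 24.9 and 9.38 TPM. Their means in GMPs were 24.9, 1.37, 1.42 and 1.67 TPM. Members of this list differed within matNeus: *Csf1r*, the receptor gene of macrophage colony-stimulating factor, was at 309, 253 and 350 TPM (means of 204 TPM in GMPs and 13.8 TPM in preNeus), *Adgre1*, the gene of the F4/80 antigen, at 75.7 to 97 TPM (means of 12.3 and 11.4 TPM), and the monocyte receptor gene *Ccr2* below 1 TPM in all 3 libraries. The 5 dendritic cell markers summed to 22.3 to 28.9 TPM in GMPs, 110 to 134 TPM in preNeus and 98.3 to 153 TPM in matNeus. The 5 basophil and mast cell markers summed to 562 to 717 TPM in GMPs, 311 to 491 TPM in preNeus and 2.54 to 15.1 TPM in matNeus, and the 4 eosinophil markers to 852 to 1101, 35.6 to 42.8 and 33.9 to 50.9 TPM in the same order. The 4 T and NK cell markers summed to 458 to 610 TPM in GMPs, 216 to 250 TPM in preNeus and 1.93 to 4.97 TPM in matNeus. Nearly all of the sum in GMPs and preNeus was *Nkg7*, a gene of cytotoxic granules, at 457 to 610 and 216 to 250 TPM, while *Cd3e* and *Klrb1c* were below 1 TPM in all 9 libraries. The 4 B cell markers summed to at most 132 TPM, the 5 megakaryocyte and platelet markers to at most 50.5 TPM and the 5 erythroid markers to at most 15.6 TPM in any library. The part of other cell types in the levels below was not tested. Fewer cells of a type and less RNA per cell cannot be told apart in these bulk samples.

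Among the 7 ligands *Ccl9* had the highest level in GMPs with 265 ± 50.3 TPM (SD, n = 3), and *Ccl6* in matNeus with 6291 ± 544 TPM (SD, n = 3). In preNeus all 7 were at or below 10.4 TPM in every library, with *Ccl6* the highest by its mean of 9.29 ± 1.05 TPM (SD, n = 3). *Ccl9* made up 79.3 to 82.4% of the TPM summed over the 7 ligands and 33 other chemokine ligand genes in GMPs. In matNeus *Ccl6* made up 90.9 to 95.6% of that sum. In preNeus the sum was small and divided, and the 7 ligands together held 42.7 to 57.9% of it.

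**Figure D1:**
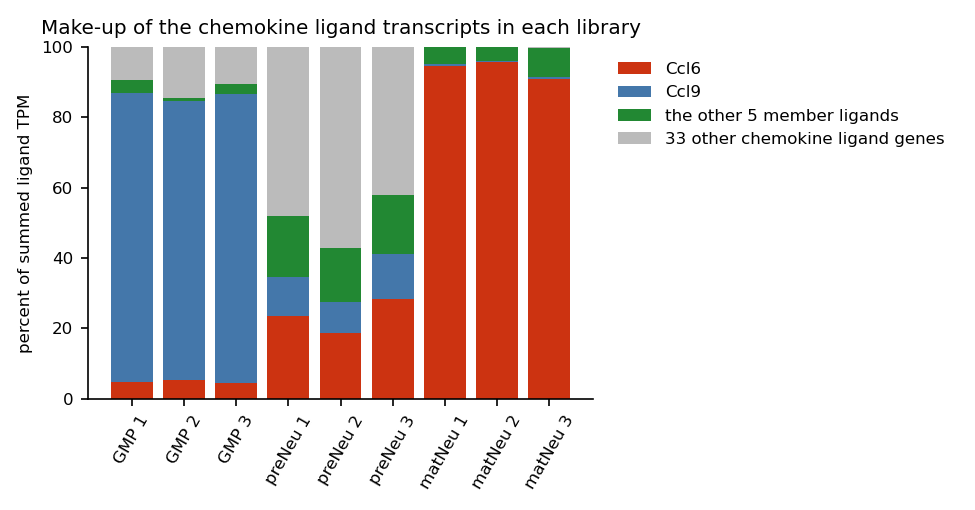
Share of the summed TPM of 40 chemokine ligand genes, in percent, for each of the 9 RNA-seq libraries (bars), split into *Ccl6*, *Ccl9*, the other 5 ligands described here and 33 other ligand genes. *Ccl9* fills 79.3 to 82.4% of each GMP bar and *Ccl6* fills 90.9 to 95.6% of each matNeu bar, while the preNeu bars are mixed.

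Of the 7 genes, 6 reached at least 1 TPM in at least 3 libraries and were tested, among 13061 genes, with limma on log2(TPM + 1) and Benjamini-Hochberg adjustment. *Cxcl16* did not reach this level, and *Cxcl2* reached it through matNeus alone, so that the counts are a description. From GMPs to preNeus 3 ligands fell (*Ccl3*, *Ccl6* and *Ccl9*), where 44.3% of all tested genes were lower, and 0 rose, where 14.7% were higher. At an unadjusted p under 0.05 *Cxcl10* was higher too. From preNeus to matNeus 5 ligands rose (*Ccl3*, *Ccl4*, *Ccl6*, *Ccl9* and *Cxcl2*), where 22.9% of all tested genes were higher, and 0 fell at an adjusted or an unadjusted p under 0.05, where 39.8% were lower. From GMPs to matNeus 5 ligands rose (*Ccl3*, *Ccl4*, *Ccl6*, *Cxcl2* and *Cxcl10*), where 22.8% were higher, and *Ccl9* fell, where 54.1% were lower. The median change of all tested genes was -0.52 on the log2 scale from GMPs to preNeus, -0.32 from preNeus to matNeus and -0.92 from GMPs to matNeus. These medians became -0.16, -0.04 and -0.25 with median-of-ratios scaling, under which the higher genes made up 41.3, 48.1 and 44.2% of the calls in the same order, against 25, 36.5 and 29.6% as deposited. Without the 10 most abundant genes in the scaling, these shares were 35.4, 31.2 and 30.9% and the medians -0.29, -0.49 and -0.88, in the same order. With median-of-ratios scaling the ligands lower in preNeus than in GMPs went from 3 to 1, as *Ccl3* (-1.27, adjusted p = 0.0683) and *Ccl6* (-0.27, adjusted p = 0.121) no longer passed, and *Cxcl10* passed as higher (1.30, adjusted p = 0.0373). No ligand changed its direction under either scaling.

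**Figure D2:**
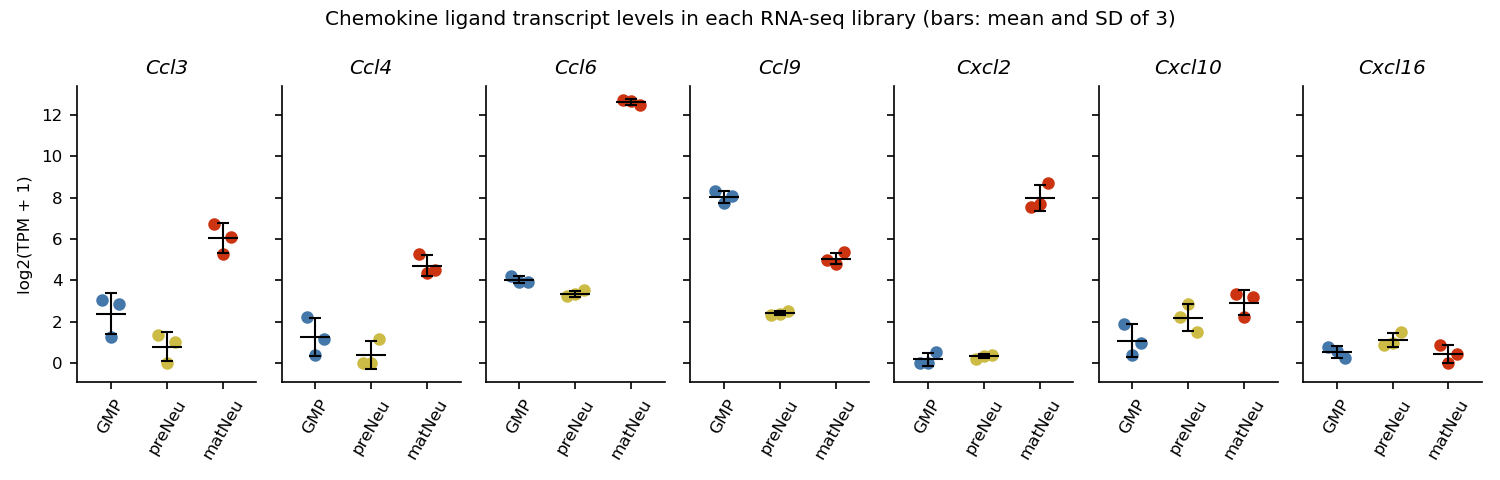
Transcript level of each ligand as log2(TPM + 1) on the vertical axis in GMPs, preNeus and matNeus, with 1 point per library and the mean and SD of 3 libraries as bars. *Ccl6* and *Cxcl2* are low in the 6 GMP and preNeu libraries and high in the 3 matNeu libraries, and *Ccl9* is highest in GMPs.

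*Ccl6* encodes a CC chemokine of rodents that macrophages and neutrophils make. Its level was 17.5, 14.3 and 14.2 TPM in the GMP libraries, 8.33, 9.12 and 10.4 TPM in preNeus, and 6637, 6572 and 5663 TPM in matNeus. The 3 groups did not overlap, and in matNeus the gene ranked between the 10th and the 13th place of all genes in a library and held 0.566 to 0.664% of its TPM. The mean was 677 times as high in matNeus as in preNeus and 410 times as high as in GMPs. The difference in log2(TPM + 1) between matNeus and preNeus was 9.26 ± 0.14 (SE, limma, adjusted p = 4.2e-11), and 9.58 relative to the median of all tested genes. The drop from GMPs to preNeus was small, at -0.67 ± 0.14 (SE, adjusted p = 0.00169), and only -0.15 relative to the median gene. It lost its call with median-of-ratios scaling, where the change was -0.27 with an adjusted p of 0.121.

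*Ccl9*, the nearest annotated chemokine gene to *Ccl6*, encodes a CC chemokine known as MIP-1 gamma that acts on CCR1. The GMP libraries held 313, 213 and 270 TPM, the preNeu libraries 4.02, 4.24 and 4.66 TPM and the matNeu libraries 30.5, 27.0 and 39.7 TPM. The groups did not overlap, and the order was GMP, matNeu, preNeu. The mean in GMPs was 61.5 times that in preNeus and 8.18 times that in matNeus. On the log2(TPM + 1) scale the difference was -5.63 ± 0.19 (SE, adjusted p = 8.2e-09) from GMPs to preNeus and 2.64 ± 0.19 (SE, adjusted p = 6.51e-07) from preNeus to matNeus. From GMPs to matNeus it was -2.99 ± 0.19 (SE, adjusted p = 1.18e-07), or -2.07 relative to the median gene. *Ccl9* was thus the only one of the 6 tested ligands to be lower in matNeus than in GMPs, while *Ccl6*, at a distance of 9245 bp, was 8.59 ± 0.14 higher (SE, adjusted p = 1.73e-11).

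*Ccl3* and *Ccl4* encode MIP-1 alpha and MIP-1 beta, inflammatory chemokines, and CCL3 acts on CCR1. *Ccl3* was at 7.35, 1.41 and 6.11 TPM in GMPs, 1.54, 0 and 1.01 TPM in preNeus, and 103, 37.5 and 68.4 TPM in matNeus. *Ccl4* was at 3.71, 0.296 and 1.21 TPM in GMPs, 0, 0 and 1.27 TPM in preNeus, and 37.9, 19.2 and 21.9 TPM in matNeus. For both genes every matNeu library lay above every other library, while GMP and preNeu libraries overlapped. Within matNeus the first replicate was highest and the second lowest for both. This order also held for both genes in GMPs, and in preNeus for *Ccl3* but not for *Ccl4*. The difference between matNeus and preNeus was 5.24 ± 0.54 for *Ccl3* (SE, adjusted p = 8.69e-06) and 4.32 ± 0.50 for *Ccl4* (SE, adjusted p = 2.25e-05). Between matNeus and GMPs it was 3.64 ± 0.54 for *Ccl3* (SE, adjusted p = 9.11e-05) and 3.46 ± 0.50 for *Ccl4* (SE, adjusted p = 7.73e-05). From GMPs to preNeus *Ccl3* fell by 1.60 ± 0.54 on the log2 scale (SE, adjusted p = 0.0252). *Ccl4* differed by -0.86 with a 95% interval of -1.97 to 0.26 (adjusted p = 0.167), which does not show that the stages were alike. The call for *Ccl3* was lost without the first GMP library (-1.27, adjusted p = 0.095), without the third GMP library (-1.38, adjusted p = 0.0864) and without the second preNeu library (-1.21, adjusted p = 0.0966). It was also lost with median-of-ratios scaling (-1.27, adjusted p = 0.0683) and without a filter on TPM (-1.60, adjusted p = 0.0647). With the replicate number as a block in limma it was kept with a smaller spread (-1.60 ± 0.25, SE, adjusted p = 0.000614).

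*Cxcl2* encodes MIP-2, a ligand of the neutrophil receptor CXCR2. It was listed at 0, 0 and 0.454 TPM in GMPs and at 0.154, 0.271 and 0.324 TPM in preNeus, against 186, 206 and 418 TPM in matNeus. All 6 GMP and preNeu libraries were below 1 TPM, and the highest matNeu library held more than the other two summed. The difference was 7.67 ± 0.33 between matNeus and preNeus (SE, adjusted p = 1.25e-08) and 7.81 ± 0.33 between matNeus and GMPs (SE, adjusted p = 4.76e-09). Since the lower groups were near 0, these values depend on the pseudocount of 1 TPM, and no fold is given. As *Cxcl2* passed the filter through matNeus alone, both p-values are a description and no support for a rise. GMPs and preNeus differed by 0.14 with a 95% interval of -0.59 to 0.87 (adjusted p = 0.74), and both were near the floor of the measurement.

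*Cxcl10* encodes IP-10, an interferon-induced ligand of CXCR3. Its level was 2.75, 0.288 and 0.98 TPM in GMPs, 3.69, 6.21 and 1.85 TPM in preNeus, and 9.07, 3.66 and 8.20 TPM in matNeus. Every matNeu library lay above every GMP library, while preNeus overlapped with both. The difference between matNeus and GMPs was 1.83 ± 0.48 (SE, adjusted p = 0.0049), and 2.76 relative to the median gene. PreNeus differed from GMPs by 1.11 with a 95% interval of 0.05 to 2.18 (adjusted p = 0.0689), and matNeus from preNeus by 0.72 with an interval of -0.34 to 1.78 (adjusted p = 0.216). The first of these passed the threshold with median-of-ratios scaling (1.30, adjusted p = 0.0373) and without the 10 most abundant genes in the scaling (1.38, adjusted p = 0.041). It also passed without the first GMP library (1.52, adjusted p = 0.0227) and without the third preNeu library (1.45, adjusted p = 0.0358).

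*Cxcl16* encodes the membrane-bound ligand of CXCR6. It was at 0.713, 0.515 and 0.163 TPM in GMPs, 0.804, 0.926 and 1.79 TPM in preNeus, and 0.798, 0 and 0.348 TPM in matNeus. PreNeus were above GMPs and matNeus in every library by a small margin, and 1 of 9 libraries reached 1 TPM. In a fit without the filter no contrast passed, with a difference of 0.56 ± 0.27 between preNeus and GMPs (SE, adjusted p = 0.155), -0.67 ± 0.27 between matNeus and preNeus (SE, adjusted p = 0.0896) and -0.11 ± 0.27 between matNeus and GMPs (SE, adjusted p = 0.789).

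**Figure D3:**
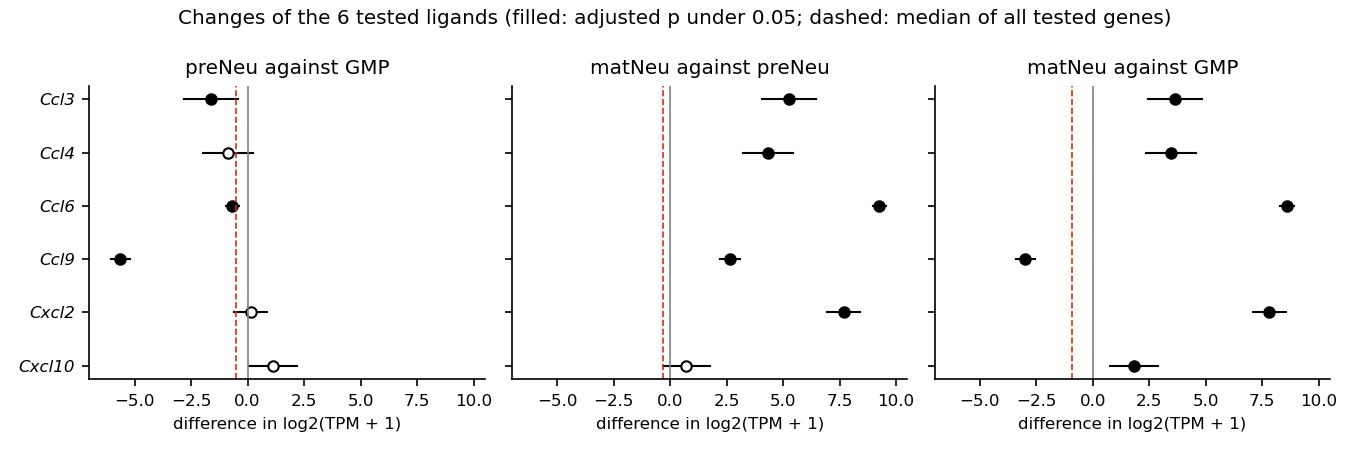
Difference in log2(TPM + 1) with its 95% interval (limma) for the 6 tested ligands in 3 contrasts, with filled points for an adjusted p under 0.05, a grey line at 0 and a dashed line at the median of all 13061 tested genes. In the contrast of matNeus against preNeus 5 of 6 ligands lie far to the right of both lines, and *Ccl9* lies on opposite sides of 0 in the 2 contrasts that involve preNeus.

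For each tested ligand the 2 genes with the nearest profile were taken, by the root mean square distance between log2(TPM + 1) profiles centred on their own means over 9 libraries. *Cxcl2* was nearest to *Socs3*, which encodes an inhibitor of cytokine signalling, at a distance of 0.24 (0.197, 0.408 and 227 TPM on average in GMPs, preNeus and matNeus), and then to *H2-Q10* at 0.37. *Ccl6* was nearest to *Clec4d* at 0.30 (3.35, 2.17 and 2024 TPM), which encodes a C-type lectin receptor of myeloid cells, and to *Sirpb1b* at 0.52. *Ccl9* was nearest to *Ifi209* at 0.52 (159, 3.19 and 11.2 TPM) and *Galnt6* at 0.53 (48, 0.786 and 8.72 TPM). *Ccl3* was nearest to *Clec7a* at 0.54 and *Pmaip1* at 0.57, *Ccl4* to *Gm10392* at 0.43 and *Trim30d* at 0.47, and *Cxcl10* to *Ly6i* at 0.36 and *Rnf103* at 0.37. No ligand had another of the 7 among its 2 nearest genes.

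Most other chemokine ligand genes were near the floor of the measurement. The 33 with a value summed to 34.4 to 38.6 TPM in GMPs, 15.5 to 27.9 TPM in preNeus and 7.42 to 12.7 TPM in matNeus. In preNeus the 7 ligands summed to 18.5 to 21.3 TPM. Of 34 other ligand genes listed, 33 were in the table, 25 of these stayed below 1 TPM in every library and 10 were listed at 0 throughout. Among the 5 that were tested, 3 were lower in matNeus than in GMPs (*Ccl25*, *Pf4* and *Ccl27a*), where 54.1% of all tested genes were lower. In limma's test 0 were higher, at an adjusted or an unadjusted p under 0.05, where 22.8% of all tested genes were higher at the adjusted threshold. *Pf4* and *Ccl27a* had means of 8.75 and 6.31 TPM in GMPs. *Ccl25*, a ligand of thymus and gut, was the only one with a mean of 10 TPM in a cell type, with 23.3, 14.2 and 12.8 TPM in GMPs, 9.73, 12.0 and 9.21 TPM in preNeus and 1.56, 2.08 and 4.23 TPM in matNeus. It was lower in matNeus than in GMPs by 2.32 ± 0.32 on the log2 scale (SE, adjusted p = 5.7e-05), against -0.92 for the median gene. *Cxcl1* and *Cxcl3*, which also encode CXCR2 ligands, reached at most 0.816 and 0.945 TPM, both in the matNeu library in which *Cxcl2* was highest.

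Of the 10 genes for receptors and scavengers of these ligands, 8 were tested and 5 rose from preNeus to matNeus, where 22.9% of all tested genes were higher. *Cxcr2*, the receptor of CXCL2, stood at 8.17, 7.65 and 11.9 TPM in GMPs, 64.7, 93.4 and 70.9 TPM in preNeus and 3027, 3400 and 3976 TPM in matNeus. *Ccr1*, a receptor of CCL3, CCL6 and CCL9, stood at 7.24, 5.49 and 4.59 TPM in GMPs, 40.6, 53.8 and 60.7 TPM in preNeus and 968, 1023 and 1283 TPM in matNeus. Both genes rose at each step: by 2.92 ± 0.19 and then 5.50 ± 0.19 for *Cxcr2* (SE, adjusted p = 7.79e-07 and 3.16e-09), and by 2.96 ± 0.20 and then 4.38 ± 0.20 for *Ccr1* (SE, adjusted p = 9.46e-07 and 1.81e-08). *Cxcr1*, which is among the 5, was listed at 0 in all GMP and preNeu libraries and at 38.4, 42.9 and 39.3 TPM in matNeus. It passed the filter on low values through matNeus alone, so that the count is a description. *Cxcr3*, the receptor of CXCL10, was at 9.10 to 16.0 TPM in matNeus and at most 1.41 TPM in the other libraries (2.87 ± 0.32 from preNeus to matNeus, SE, adjusted p = 1.79e-05). *Ccrl2*, an atypical receptor, had a mean of 58.3 TPM in matNeus against 7.41 TPM in preNeus (2.71 ± 0.34, SE, adjusted p = 4.13e-05). *Ccr3* was tested and rose from GMPs to preNeus by 2.09 ± 0.37 (SE, adjusted p = 0.000689), with means of 0.311, 4.83 and 3.25 TPM along the order GMP, preNeu and matNeu. *Cxcr6*, the receptor of CXCL16, had means of 1.40, 0.133 and 0.50 TPM in that order and passed in 0 contrasts in limma's test, with an unadjusted p under 0.05 from GMPs to preNeus. The scavenger gene *Ackr2* was below 1 TPM in every library and *Ackr1* in 8 of 9.

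Of 9 genes for proteases and sheddases that cut chemokines, all tested, 3 rose from preNeus to matNeus (*Mmp8*, *Mmp9* and *Mmp12*), where 22.9% of all tested genes were higher, and 4 fell (*Elane*, *Ctsg*, *Prtn3* and *Adam10*), where 39.8% were lower. *Mmp8* and *Mmp9*, a collagenase and a gelatinase of neutrophil granules, reached 6602 ± 862 and 6539 ± 184 TPM in matNeus (SD, n = 3). *Elane*, the gene of neutrophil elastase, fell from 7314 ± 1075 TPM in GMPs to 3.41 ± 4.92 TPM in matNeus (SD, n = 3, adjusted p = 2.32e-08). *Dpp4*, whose product trims CXCL10, was at 33.7 ± 8.35 TPM in GMPs and 2.85 ± 1.44 TPM in preNeus (SD, n = 3, adjusted p = 0.000118).

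Of 12 genes that regulate chemokine transcription or mRNA decay, all tested, 8 rose from preNeus to matNeus and 1 fell, where 22.9% of all tested genes were higher and 39.8% lower. *Zfp36*, which encodes the mRNA decay factor tristetraprolin, was at 49.4, 43.0 and 58.4 TPM in preNeus and 959, 733 and 1336 TPM in matNeus (4.27 ± 0.24, SE, adjusted p = 8.86e-08). *Nfkbia*, an NF-kB inhibitor and target, was at 259 to 337 TPM in preNeus and 820 to 962 TPM in matNeus (1.55 ± 0.17, SE, adjusted p = 1.75e-05). *Irf8*, a regulator of monocyte fate, was at 483 to 548 TPM in GMPs, 10.8 to 13.9 TPM in preNeus and 6.93 to 19.2 TPM in matNeus. Its fall from GMPs to preNeus was 5.26 ± 0.30 on the log2 scale (SE, adjusted p = 3.49e-07). Between preNeus and matNeus *Irf8* did not differ detectably (-0.27 ± 0.30, SE, adjusted p = 0.462). A link between these regulators and the ligands was not tested. Of 12 listed early response and dissociation genes, which cell handling can induce, 11 were tested and 9 rose from preNeus to matNeus, against the same 22.9% of all tested genes. *Atf3*, which is among the 9, passed the filter on low values through matNeus alone. *Fosb* and *Hspa1a* did not pass the test, with changes of 0.48 ± 0.30 and 0.37 ± 0.38 (SE, adjusted p = 0.19 and 0.422). *Fos* was at 47.7 to 88.9 TPM in preNeus and at 1188, 1128 and 2476 TPM in matNeus, and *Egr1* at 1.65 to 2.52 TPM in preNeus and at 97.5, 40.7 and 163 TPM in matNeus. The third matNeu library was the highest of the 3 for *Fos*, *Egr1* and *Zfp36* and, among the 7 ligands, for *Cxcl2* and *Ccl9*, while the first was the highest for *Ccl3*, *Ccl4*, *Ccl6*, *Cxcl10* and *Cxcl16*. The heat shock genes *Hspa1a* and *Hspa1b* were at most 2.01 TPM in preNeus and matNeus. The part of cell handling in the matNeu levels was not tested.

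On the genome, 5 of the 7 genes lie on chromosome 11 and 2 on chromosome 5 (GRCm38, GENCODE M21). *Ccl9* (chr11:83572919-83578636, minus strand), *Ccl6* (chr11:83587882-83593087, minus), *Ccl3* (chr11:83647844-83649355, minus) and *Ccl4* (chr11:83662584-83664683, plus) share a cluster of 91765 bp. *Cxcl16* (chr11:70453983-70459984, minus) lies apart from them, and *Cxcl2* (chr5:90903871-90905938, plus) and *Cxcl10* (chr5:92346638-92348889, minus) lie on chromosome 5. *Cxcl10* lies within *Art3* on the opposite strand, *Ccl6* overlaps the noncoding gene *E230016K23Rik*, and the 5′ part of *Cxcl16* overlaps that of *Zmynd15* on the opposite strand. *Art3* had means of 2.70, 0.477 and 1.42 TPM in GMPs, preNeus and matNeus and *Zmynd15* at most 0.135 TPM. The library kit keeps the strand, but whether quantification used it is not given in the sources used here. Of 8 other protein-coding genes with a value within 100 kb of the cluster, *Wfdc17*, named after its values were seen, had means of 0.283, 0.715 and 167 TPM in GMPs, preNeus and matNeus. *Ccl5*, which lies 42400 bp past the end of *Ccl9*, had means of 0.805, 0.374 and 1.18 TPM.

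Promoter sequence was in the RefSeq table for 5 of the 7 genes, and not for *Ccl4* and *Cxcl16*. The 250 bases before the RefSeq start (GRCm38.p6) are shown in lower case, since the chromatin data bear on these windows. Capitals mark matches on either strand to 5 short motifs: an NF-kB motif (GGGANNTNC), a C/EBP motif (TTGCNNAA), an ETS core (GGAAGT), an interferon response motif (GAAANNGAA) and a GFI1 core (AAATCA). Overlapping matches run together.
Cxcl2 promoter, chr5:90903649-90903898, plus strand: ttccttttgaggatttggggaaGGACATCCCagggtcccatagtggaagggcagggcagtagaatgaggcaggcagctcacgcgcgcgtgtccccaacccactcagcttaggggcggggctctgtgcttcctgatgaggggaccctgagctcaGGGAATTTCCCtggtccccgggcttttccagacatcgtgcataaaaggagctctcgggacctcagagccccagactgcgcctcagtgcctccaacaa
Cxcl10 promoter, chr5:92348890-92349139, minus strand: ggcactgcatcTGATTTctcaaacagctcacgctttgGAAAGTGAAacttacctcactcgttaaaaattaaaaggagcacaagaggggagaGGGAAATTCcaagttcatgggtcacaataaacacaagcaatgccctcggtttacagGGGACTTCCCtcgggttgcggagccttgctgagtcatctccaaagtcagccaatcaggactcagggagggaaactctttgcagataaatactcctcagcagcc
Ccl6 promoter, chr11:83593088-83593337, minus strand: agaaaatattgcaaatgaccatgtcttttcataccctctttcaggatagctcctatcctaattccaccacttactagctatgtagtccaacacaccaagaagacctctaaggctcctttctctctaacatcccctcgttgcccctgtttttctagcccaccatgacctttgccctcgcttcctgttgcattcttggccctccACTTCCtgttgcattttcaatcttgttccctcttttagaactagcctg
Ccl9 promoter, chr11:83578637-83578886, minus strand: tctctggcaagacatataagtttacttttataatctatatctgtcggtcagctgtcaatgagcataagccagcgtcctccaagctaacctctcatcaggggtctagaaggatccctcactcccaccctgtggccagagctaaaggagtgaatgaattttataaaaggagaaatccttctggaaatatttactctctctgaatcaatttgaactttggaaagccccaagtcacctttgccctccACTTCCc
Ccl3 promoter, chr11:83649379-83649628, minus strand: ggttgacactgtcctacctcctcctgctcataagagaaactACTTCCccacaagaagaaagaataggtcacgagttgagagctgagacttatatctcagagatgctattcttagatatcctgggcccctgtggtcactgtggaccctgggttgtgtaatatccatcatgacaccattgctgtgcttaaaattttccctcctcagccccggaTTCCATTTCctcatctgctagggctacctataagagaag
The NF-kB motif occurred in *Cxcl2* and *Cxcl10* and not in *Ccl3*, *Ccl6* or *Ccl9*, and was found in 12.5% of all 32851 promoters of this length. In *Cxcl2* it lay at -228 to -220 and, on both strands, at -97 to -87, counted back from the start, and in *Cxcl10* at -159 to -151 and, on both strands, at -103 to -94. The interferon response motif was in *Cxcl10* at -213 to -205, in *Ccl3* at -39 to -31 and in 7.13% of all promoters. The ETS core, the binding core of SPI1 and related factors, was in *Ccl3*, *Ccl6*, *Ccl9* and *Cxcl10* and in 19.7% of all promoters. In *Cxcl10* it overlapped an NF-kB match. The *Ccl6* and *Ccl9* promoters shared a run of 13 bases around this core, which began at -55 in *Ccl6* and at -14 in *Ccl9*. The GFI1 core was in *Cxcl10*, at -239 to -234, and in 12.4% of all promoters. The C/EBP motif was in none of the 5 windows and in 9.56% of all promoters. Each match is a description of the letters and not a measured site.

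CHD4 peaks lay near all 7 genes in WT GMPs. Within 10 kb of the gene there were 10 peaks for *Ccl6*, 9 for *Ccl9*, 6 for *Cxcl10*, 5 for *Ccl3*, 4 for *Ccl4*, 2 for *Cxcl2* and 2 for *Cxcl16*, which are 33 different peaks, 5 of them near 2 of the genes. Over all protein-coding genes, 32.5% had at least 1 such peak, 8.33% had at least 5 and 3.47% had at least 9. A CHD4 peak covered the start site of *Ccl3*, *Ccl4*, *Ccl6* and *Ccl9*, the 4 genes of the chromosome 11 cluster, as for 4.0% of all protein-coding genes. The *Ccl9* start site was covered by a peak with a fold enrichment over background of 34.4, a value that 96.7% of the list lay below, against 8.07 at *Ccl6*, 10.1 at *Ccl4* and 9.04 at *Ccl3*. Other high peaks lay past the end of *Ccl9*, 6220 bp downstream of its start (38.4), and in an intron of *Ccl9*, 1428 bp downstream of its start (31.4). *Cxcl2* had only weak peaks, with a fold enrichment of 4.41 at 495 bp upstream of its start and 4.06 at 5374 bp upstream, values that 6.16% and 3.16% of the list lay below. At *Cxcl10* the nearest summit lay 86 bp upstream (5.09), inside the promoter window shown. That peak covered every marked match of the window, those of the NF-kB, ETS and interferon response motifs and the GFI1 core.

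In *Gfi1*-/- GMPs a CHD4 peak was called at 6 of these 33 sites (18.2%), against 18.5% of all 35790 sites of WT GMPs. The list of *Gfi1*-/- GMPs was shorter (7316 peaks), and library depth and bound CHD4 cannot be told apart. By fold enrichment in WT GMPs, 4 of 5 sites of at least 20 were kept (90.5% of all such sites), 1 of 6 sites of 10 to 20 (28.9%) and 1 of 22 sites under 10 (2.57%). The kept sites were those at the start, in the intron and past the end of *Ccl9*, the site between *Ccl3* and *Ccl4*, a site 4899 bp upstream of *Cxcl10* and a site 8078 bp upstream of *Cxcl16*. Their fold enrichment was 34.4, 31.4, 38.4, 21.1, 17.7 and 6.45 in WT GMPs and 7.97, 8.60, 11.9, 6.00, 4.81 and 5.83 in *Gfi1*-/- GMPs, on the scale of each list. The peaks over the start sites of *Ccl3*, *Ccl4* and *Ccl6* and both peaks of *Cxcl2* had no counterpart. Nor had the peak in the promoter window of *Cxcl10* and a peak of 22.4 past the end of *Ccl9*. The start of *Ccl9* was thus covered in both genotypes, as were 0.747% of start sites in the *Gfi1*-/- list. Of all protein-coding genes, 10.2% had a CHD4 peak of *Gfi1*-/- GMPs within 10 kb, against 6 of the 7 genes here. These 6 genes are not separate cases, as 2 of the peaks were each counted for 2 genes. *Ccl6* was counted only through the peak at the start of *Ccl9*, and *Ccl3* and *Ccl4* only through the peak between them. The 61 bases around the summit are given for 5 kept sites, and not for the start of *Ccl9*, whose summit lay in exon sequence.
CHD4 summit past the end of Ccl9, chr11:83572386-83572446, plus strand: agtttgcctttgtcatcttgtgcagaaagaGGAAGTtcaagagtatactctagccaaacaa
CHD4 summit in an intron of Ccl9, chr11:83577178-83577238, plus strand: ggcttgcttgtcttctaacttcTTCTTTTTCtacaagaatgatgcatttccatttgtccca
CHD4 summit between Ccl3 and Ccl4, chr11:83658969-83659029, plus strand: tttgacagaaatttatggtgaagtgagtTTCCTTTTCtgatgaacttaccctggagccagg
CHD4 summit upstream of Cxcl10, chr5:92353758-92353818, plus strand: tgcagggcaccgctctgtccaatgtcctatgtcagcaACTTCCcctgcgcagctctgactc
CHD4 summit upstream of Cxcl16, chr11:70468032-70468092, plus strand: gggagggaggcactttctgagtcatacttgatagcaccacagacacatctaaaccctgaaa
Capitals mark the same motifs. The site past the end of *Ccl9* and the site upstream of *Cxcl10* held the ETS core, as did 9 of the 33 windows (27.3%) and 17.5% of all 35728 windows of this kind. The site between *Ccl3* and *Ccl4* and the site in the intron of *Ccl9* held the interferon response motif, as did 3 of the 33 windows (9.09%) and 3.82% of all. The GFI1 core was in 0 of the 33 windows and in 3.24% of all, and its share was 3.71% in windows kept in *Gfi1*-/- GMPs and 3.14% in the others.

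**Figure D4:**
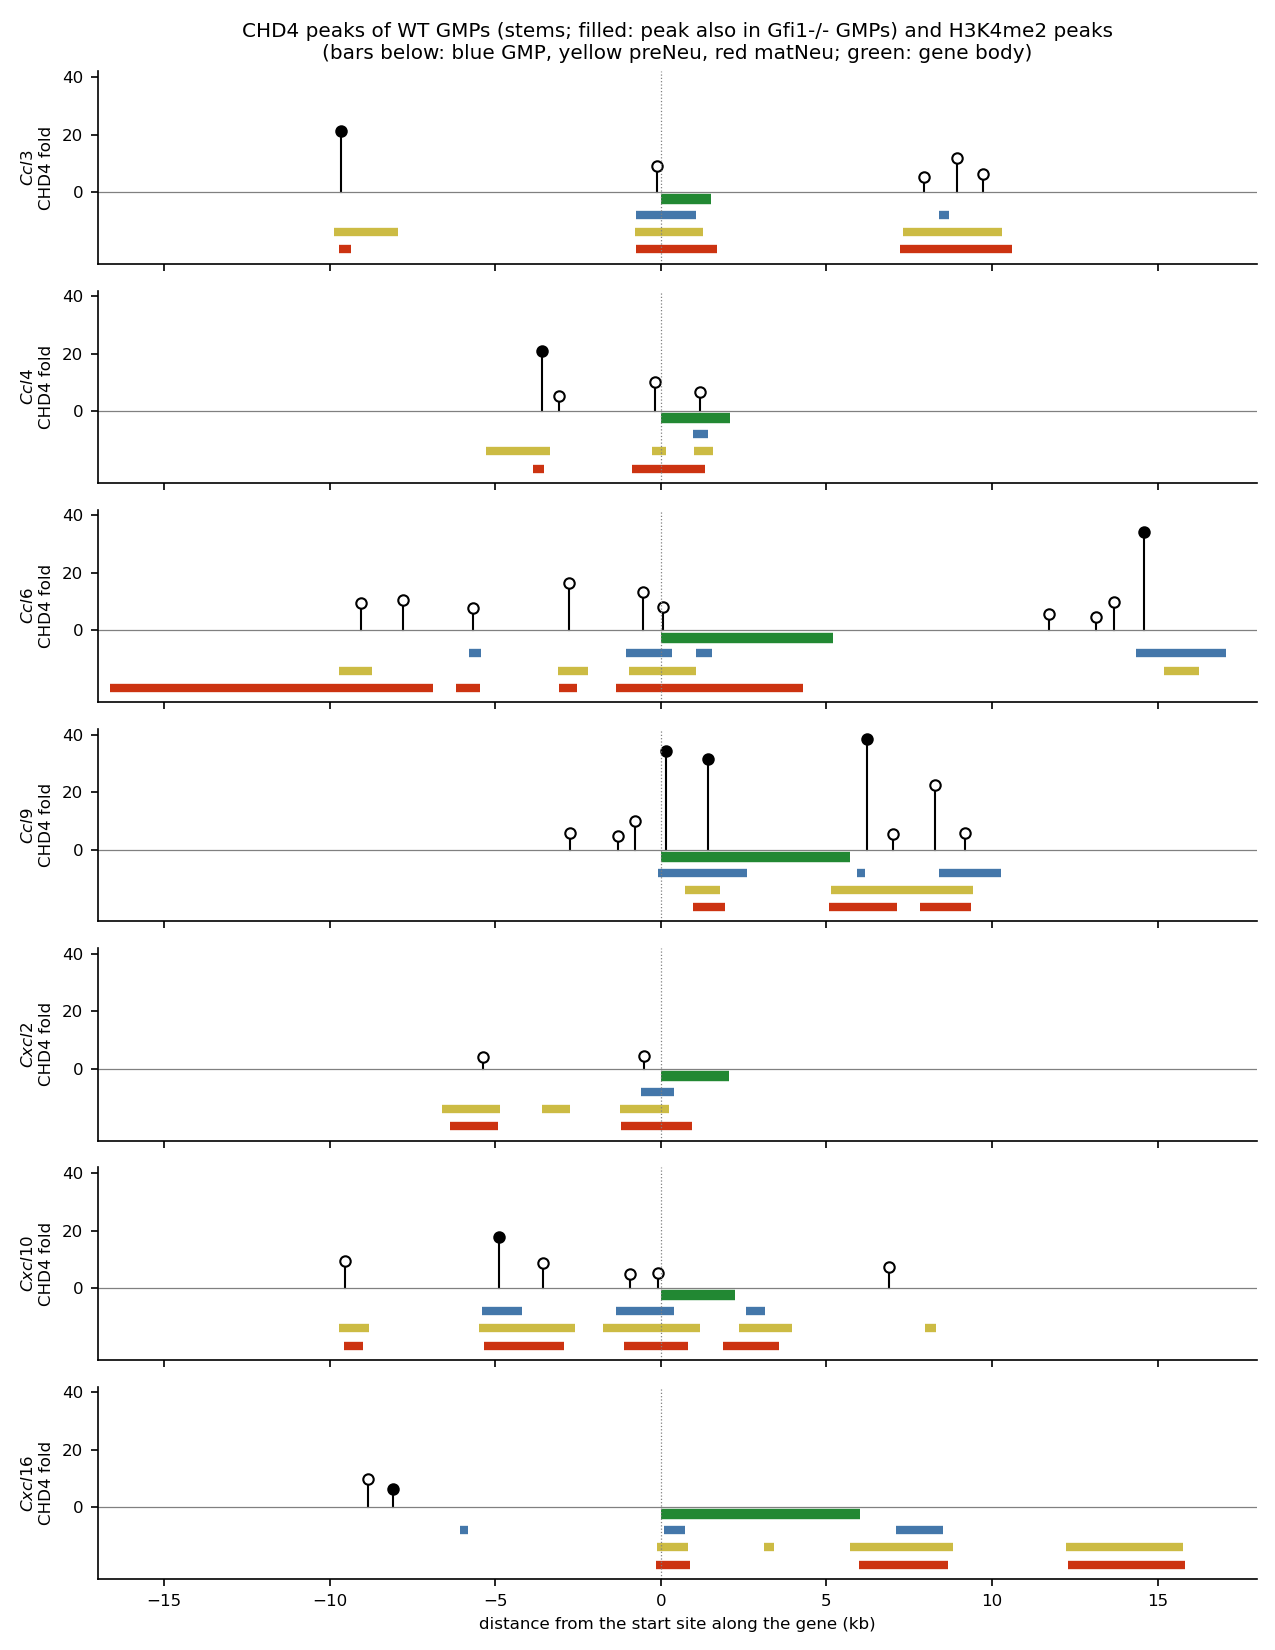
CHD4 peaks of WT GMPs by distance of the summit from the start site (kb, along the gene) and by fold enrichment over background (stem height), filled where *Gfi1*-/- GMPs also had a peak, with the gene body in green and H3K4me2 peaks as bars for GMPs (blue), preNeus (yellow) and matNeus (red), 1 row per gene. The high filled stems cluster at *Ccl9*, and the longest matNeu bars lie at *Ccl6*.

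H3K4me2 peaks lay within 10 kb of all 7 genes at each stage, where 73.6% of protein-coding genes had such a peak in GMPs, 74.2% in preNeus and 72.1% in matNeus. With a −log10 q of at least 5, *Cxcl16* alone remained in the GMP list (37.1% of all genes), while 6 genes, all but *Ccl4*, had such a peak in preNeus (67.7%) and in matNeus (65.2%). The start site was covered for 5 of the 7 genes in GMPs (49.7% of all), and for 6 in preNeus (55.1%) and 6 in matNeus (52.9%). *Ccl9* was covered at its start in GMPs by a peak of 2706 bp, which reached 99 bp upstream of the start. In preNeus and matNeus its nearest peak began 734 and 978 bp downstream of the start and was 1069 and 968 bp long. *Ccl4* was the reverse, with its start covered in preNeus (419 bp) and matNeus (2196 bp) and not in GMPs. At *Ccl6* the peak over the start was 1386 bp long in GMPs, 2034 bp in preNeus and 5640 bp in matNeus, and a further matNeu peak of 9768 bp began 6862 bp upstream. The peaks near *Ccl6* summed to 4958 bp in GMPs, 4998 bp in preNeus and 16665 bp in matNeus. The sums in GMPs and preNeus include the *Ccl9* peaks of 2706 and 1069 bp given above. The sum in matNeus holds the whole peak of 9768 bp, which reached 16629 bp upstream and so past 10 kb. *Cxcl2*, below 1 TPM in GMPs and preNeus, had its start covered at all 3 stages, by 1012, 1481 and 2143 bp. *Cxcl16* had a start site peak with a fold enrichment of 9.40 in preNeus, above 81.4% of that list, and of 6.18 in matNeus, above 71.9%, at levels of at most 1.79 TPM. These peaks also covered the start of *Zmynd15*, so that they cannot be assigned to either gene. In GMPs a peak lay at the same place but began 111 bp downstream of the *Cxcl16* start. Its fold enrichment was 5.00, above 98.9% of the GMP list, and its centre lay in exons of both genes. Each list comes from 1 library of unknown depth, and lengths and fold enrichments were not tested between stages.

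The ATAC-seq lists deposited for preNeus and matNeus were identical, with 16307 peaks, so that the stage they show was not settled. Within 10 kb, *Cxcl2*, *Ccl3* and *Cxcl16* had 1 peak each and *Ccl4*, *Ccl6*, *Ccl9* and *Cxcl10* had 0, where 52.9% of protein-coding genes had at least 1. The peak at *Cxcl2* covered its start site, as for 30.4% of all genes, and ran from 691 bp upstream to 49 bp downstream, over all of the promoter window shown. *Ccl6*, at 5663 TPM or more in matNeus, had no peak in this list.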

How the data were processed

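Samples were grouped by title. RNA-seq values were deposited by the authors as TPM of each gene, every library summing to 1000000, and TPM keeps no depth, so that no count test was run. The submitters' processing notes name kallisto 0.44.0, BWA 0.7.17, MACS2 2.1.0, Trimmomatic 0.36 and the mm10 build, while the protocol text describes Tophat and HTSeq, so that the tool behind the TPM values is not settled. The authors deposited for each peak a fold enrichment over background, a linear ratio, and a −log10 q-value, and both were used within their own list only. The number of reads is unknown. The H3K4me3 and GFI1 lists hold peaks past the ends of mouse chromosomes and were not used, and the identical ATAC-seq lists were read as 1 list. The expression table held 0 unmapped value columns.

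Levels were fitted with limma 3.58.1 (R 4.3.3) on log2(TPM + 1), with 1 coefficient per cell type, a variance trend, and two-sided p-values with Benjamini-Hochberg adjustment at 0.05 over the genes that reached 1 TPM in 3 or more libraries. The fit was tested on simulated data. Peaks were counted when they overlapped a gene or lay within 10 kb of it (GENCODE M21, GRCm38), and a CHD4 site of WT GMPs was kept when a *Gfi1*-/- peak shared 1 bp or more with it. Motifs were searched with Python 3.11.15. The rule for names was to give the 7 ligands in every library, the receptors, listed genes with a mean of at least 10 TPM where they bear on a ligand, and the 2 nearest genes per ligand. The result of 1 listed receptor gene is not reported here. Any other gene named was chosen after its values were seen. The 7 genes, the lists and the tests were chosen with earlier results of these data known. The alternatives were a pseudocount of 0.1, no filter, a filter of 5 TPM, 2 other scalings, the compared groups alone, the replicate number as a block, no variance trend, leaving out each library, and for peaks 5 or 20 kb, a −log10 q of at least 5 and an overlap of 50%.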

Additional observations from a re-analysis of the deposited data

How the results depend on the processing

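No change of a ligand turned its direction under any of the alternatives. The number of ligands higher in preNeus than in GMPs was 0 as reported and became 1 (*Cxcl10*) with median-of-ratios scaling and 1 with the 10 most abundant genes left out of the scaling, and 0 to 1 without each library in turn. The number lower in preNeus was 3 and became 1 (*Ccl9*) with median-of-ratios scaling, and 2 to 3 without each library. The numbers from preNeus to matNeus and from GMPs to matNeus stayed within 1.5 times of those reported under every alternative. With the replicate block, the numbers were 0 higher and 3 lower from GMPs to preNeus, 5 and 0 from preNeus to matNeus, and 5 and 1 from GMPs to matNeus, as without it, and no other call changed. The deviations of same-numbered libraries correlated between -0.0394 and 0.123, over 0.1 in 1 of 9 pairs. A library correlated best with its own number in 10 of 18 cases. These values do not settle whether same-numbered libraries were paired. For *Ccl3* from GMPs to preNeus the SE was 0.25 with the block and 0.54 without it. The members with an H3K4me2 peak in GMPs went from 7 to 1 at a −log10 q of at least 5. The CHD4 peaks near the 7 genes numbered 23 within 5 kb and 45 within 20 kb, of which 5 and 8 were kept. The causes of these differences were not tested, apart from the wider or narrower windows. Depth is unknown for both kinds of data, so that values near 0 TPM and absent peaks cannot be read as absence.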
